A study of Mus musculus with 16 samples.

Results

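The transcripts described here are 10 genes best known from fat cells, measured in primary cultures of chondrocytes, the cell type of cartilage, from mouse joints. They are Adipoq, Cfd, Plin1, Fabp4, Pparg, Lpl, Cebpa, Cd36, Plin2 and Retn, 10 of the 55450 genes listed for every library. They were selected on their levels in these same libraries, so differences between groups are described for them without a test. The filter for testing asked for 1 FPKM or more in 4 or more libraries, which 12976 genes and 9 of the 10 met. FPKM counts sequenced fragments per kilobase of gene, scaled to the size of the library. It does not correct for unlike composition of libraries, and summed FPKM was 521294 to 559190 with IL-1β against 405159 to 423830 elsewhere. Comparisons with IL-1β thus depend on the scaling. Adipoq, Cfd, Plin1 and Cd36 passed the filter through the bleomycin and doxorubicin libraries alone, and Retn did not pass it.

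RNA was sequenced in 16 libraries, 4 in each of 4 groups, and all of them grew in 3% oxygen and 10% fetal bovine serum. The bleomycin group had 4 h of hyaluronidase at 4 U/mL, then 24 h of bleomycin at 50 µg/mL, and then 5 days in fresh medium. The doxorubicin group had 50 nM doxorubicin for 5 days, renewed every 48 h. The IL-1β group had interleukin-1 beta at 1 ng/mL for 24 h. The vehicle group had an equal volume of phosphate-buffered saline for 24 h. Bleomycin cuts DNA and doxorubicin traps topoisomerase II on it, and the study used both to induce senescence, a lasting arrest of damaged cells. IL-1β is an inflammatory cytokine that served as an acute stress for comparison. The labels do not say when the vehicle cells were harvested, whether they received hyaluronidase, or whether replicates came from separate animals or cultures. The agent and the days in culture can therefore not be told apart, and p-values measure the spread between these samples, which may be technical.

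Fat cells store fatty acids as triglyceride in a lipid droplet. The nuclear receptor PPARγ and the transcription factor C/EBPα switch on the genes for taking up, carrying and storing lipid. Mature fat cells also secrete hormones, and some of the lipid-handling genes, such as those of PPARγ, lipoprotein lipase, the fatty acid carrier FABP4 and perilipin 2, are also used by macrophages and other cells.

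The cells carried the transcripts of cartilage. Col2a1, which encodes the main cartilage collagen, averaged 8971 FPKM in vehicle, 6356 after bleomycin, 6495 after doxorubicin and 3972 after IL-1β. Estimated depth was 15.8 to 22.1 M (mega) fragments per library, and 12014 to 12481 genes per library reached 1 FPKM. Summed FPKM was 405159 to 423830 outside the IL-1β group and 521294 to 559190 within it.

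Promoters were matched for 8 of the 10 genes in RefSeq (GRCm38.p6), not for Fabp4 and Lpl. The stretches of 4 of them are shown because Adipoq, Cfd and Plin1 had the most similar levels across the 16 libraries of all pairs of the 9 genes, while Plin2 had a different pattern. Each runs 5′ to 3′ on the gene's strand, within the 250 bases before the annotated start and up to the first annotated exon. Capitals mark matches on either strand to AGGTCA, the half-site that PPARγ and related receptors recognise, or to TTNNGCAAN, the core bound by C/EBP proteins. The Adipoq stretch is chr16:23146286-23146535 on the plus strand, and the Cfd stretch is chr10:79890603-79890852 on the plus strand. The Plin1 stretch is chr7:79732904-79733026 on the minus strand, and the Plin2 stretch is chr4:86670061-86670309 on the minus strand.
Adipoq: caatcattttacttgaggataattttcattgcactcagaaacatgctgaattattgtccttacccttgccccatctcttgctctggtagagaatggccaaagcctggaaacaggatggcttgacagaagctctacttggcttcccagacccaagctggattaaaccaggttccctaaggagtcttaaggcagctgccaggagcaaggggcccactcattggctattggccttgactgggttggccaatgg
Cfd: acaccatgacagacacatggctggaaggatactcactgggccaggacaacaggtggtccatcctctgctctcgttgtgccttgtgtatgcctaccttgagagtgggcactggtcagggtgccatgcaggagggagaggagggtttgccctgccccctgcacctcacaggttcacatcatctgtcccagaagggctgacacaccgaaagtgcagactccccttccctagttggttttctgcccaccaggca
Plin1: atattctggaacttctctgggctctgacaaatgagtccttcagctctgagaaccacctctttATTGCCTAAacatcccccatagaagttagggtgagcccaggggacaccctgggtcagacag
Plin2: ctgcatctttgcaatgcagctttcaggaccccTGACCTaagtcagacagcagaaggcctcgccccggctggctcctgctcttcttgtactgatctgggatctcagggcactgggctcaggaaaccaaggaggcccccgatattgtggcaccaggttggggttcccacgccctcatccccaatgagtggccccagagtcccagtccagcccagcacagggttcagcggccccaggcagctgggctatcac
The Adipoq and Cfd stretches held neither motif. In its full 250 bases Plin1 held 2 matches to the C/EBP core, at 188 to 180 and at 59 to 51 bases before the start, and the first of these is in capitals above. Plin2 held 1 PPAR half-site, 218 to 213 bases before the start. Over the 10 promoters of the 8 matched genes (Pparg has several starts), 4 held the half-site (in Cd36, Plin2 and Pparg) and 2 held the C/EBP core (in Plin1 and Pparg). Of all 32851 promoters of this length, 14.0% held the half-site and 9.52% the C/EBP core. A pair of AGGNCA half-sites 1 base apart, the arrangement that PPARγ binds with its partner RXR, was in 0 of the 10 and in 0.338% of all. Such a match describes the letters in this window and is neither a binding site nor a cause.

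Across the 10 genes, most levels took one of 2 shapes. Adipoq, Cfd and Plin1 were at or near 0 in the vehicle and IL-1β libraries and were present after bleomycin and, at higher levels, after doxorubicin, while Retn was above a few fragments after doxorubicin alone. Fabp4, Lpl, Cebpa, Pparg and Plin2 were already present in vehicle and had higher mean levels in all 3 treated groups. Cd36 lay between the shapes. In bulk RNA, a change in the number of cells that express a gene and a change in its RNA per cell cannot be told apart.

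**Figure D1:**
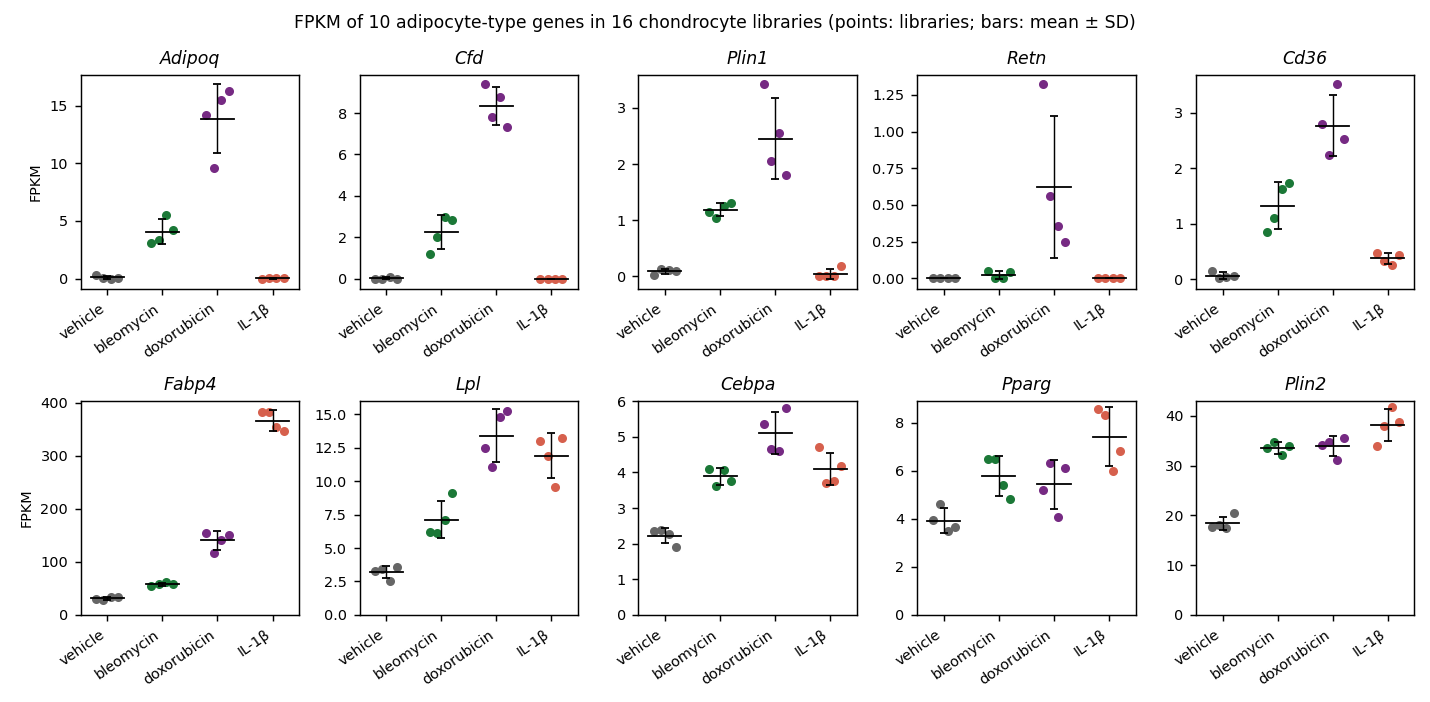
FPKM (vertical axes, each from its own 0) of the 10 genes by group; points are single libraries, long bars the mean and error bars the SD of 4 libraries. Adipoq, Cfd, Plin1 and Retn sit near 0 in vehicle and IL-1β and highest in doxorubicin, while the IL-1β libraries are highest for Fabp4 at 346 to 383 FPKM.

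Among the secreted products, Adipoq (ENSMUSG00000022878.5, chr16:23146536-23158028, plus strand) encodes adiponectin, the hormone most typical of fat cells. Its vehicle libraries 1 to 4 stood at 0.284, 0.0470, 0 and 0.0864 FPKM. The bleomycin libraries stood at 3.13, 3.36, 5.52 and 4.21 FPKM. The doxorubicin libraries stood at 14.1, 9.58, 15.5 and 16.3 FPKM, and those of IL-1β at 0, 0.0834, 0.0416 and 0.0465 FPKM. Every bleomycin library was above every vehicle library, every doxorubicin library was above every bleomycin library, and vehicle and IL-1β overlapped. The doxorubicin mean of 13.9 ± 2.99 FPKM (SD, n = 4) was 3.42-fold the bleomycin mean of 4.06 ± 1.08 FPKM. On the log2(FPKM + 1) scale, which understates changes of low genes, the difference from vehicle was 2.18 ± 0.16 (SE) for bleomycin, 3.73 ± 0.16 for doxorubicin and -0.08 ± 0.16 for IL-1β.

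Cfd (ENSMUSG00000061780.6, chr10:79890853-79892655, plus strand) encodes adipsin, complement factor D, a protease that fat cells release and that starts the alternative complement pathway. It was listed at 0 in 3 vehicle libraries and at 0.0689 FPKM in the third, and at 0 in all 4 IL-1β libraries. It stood at 1.18, 2.02, 2.98 and 2.84 FPKM after bleomycin and at 9.39, 7.81, 8.80 and 7.35 FPKM after doxorubicin. The bleomycin and doxorubicin values did not overlap each other or those of the other groups, and the doxorubicin mean was 3.70-fold the bleomycin mean. The log2 difference from vehicle was 1.64 ± 0.15 for bleomycin and 3.19 ± 0.15 for doxorubicin.

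Retn encodes resistin, a small hormone that mouse fat cells secrete (ENSMUSG00000012705.16, chr8:3655770-3660110, plus strand). It was listed at 0 in all 4 vehicle and all 4 IL-1β libraries. After bleomycin it stood at 0.0519, 0, 0 and 0.0402 FPKM. After doxorubicin it stood at 1.32, 0.560, 0.356 and 0.246 FPKM, above every library of the other groups but with a 1.32 that was more than the other 3 doxorubicin values put together. At the estimated depth the doxorubicin values stand for about 6.6 to 45 fragments, so Retn is the least well measured of the 10.

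Of the lipid droplet coat proteins, Plin1 (ENSMUSG00000030546.14, chr7:79720218-79732903, minus strand) encodes perilipin 1, which covers the droplet of mature fat cells and controls access of lipases. It stood at 0.0180, 0.122, 0.113 and 0.0985 FPKM in vehicle, about 1.6 to 9.2 fragments a library, and in IL-1β at 0 in 3 libraries and 0.183 in the fourth. It stood at 1.15, 1.05, 1.25 and 1.31 FPKM after bleomycin and at 3.42, 2.05, 2.55 and 1.80 FPKM after doxorubicin. The lowest bleomycin value was thus well above the highest vehicle value, and the doxorubicin values began above the bleomycin ones, with a mean 2.07-fold as high.

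Plin2 (ENSMUSG00000028494.12, chr4:86648386-86670060, minus strand) encodes perilipin 2, which coats droplets in most cell types. It stood at 17.7, 18.0, 17.4 and 20.4 FPKM in vehicle and at 33.5, 34.8, 32.0 and 33.9 FPKM after bleomycin. It stood at 34.1, 34.8, 31.1 and 35.5 FPKM after doxorubicin and at 33.9, 38.0, 41.7 and 38.7 FPKM after IL-1β. Each treated group lay wholly above vehicle, by 1.83-fold, 1.85-fold and 2.07-fold in the means, and the 3 treated groups overlapped one another. With libraries rescaled to a common sum, the log2 difference of IL-1β from vehicle went from 1.01 to 0.67. Unlike Plin1, Plin2 was thus nearly level between bleomycin and doxorubicin, with means of 33.5 ± 1.14 and 33.9 ± 1.96 FPKM (SD, n = 4).

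The lipid uptake and transport genes are Lpl, Cd36 and Fabp4. Lpl (ENSMUSG00000015568.16, chr8:68880491-68907448, plus strand) encodes lipoprotein lipase, which frees fatty acids from circulating triglyceride. It stood at 3.25, 3.42, 2.57 and 3.60 FPKM in vehicle and at 6.18, 6.14, 7.07 and 9.11 FPKM after bleomycin. It stood at 12.5, 11.1, 14.8 and 15.3 FPKM after doxorubicin and at 13.0, 11.9, 9.54 and 13.2 FPKM after IL-1β. All treated groups were above vehicle, by 2.22-fold, 4.17-fold and 3.71-fold in that order, and doxorubicin and IL-1β overlapped above bleomycin. The lowest IL-1β value was close to the highest bleomycin value (9.54 against 9.11 FPKM), so the order of these groups depends on the scaling.

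Cd36 (ENSMUSG00000002944.15, chr5:17781690-17888801, minus strand) encodes a fatty acid translocase at the cell surface, also a scavenger receptor of macrophages. It stood at 0.152, 0.0183, 0.0374 and 0.0651 FPKM in vehicle and at 0.482, 0.337, 0.261 and 0.444 FPKM after IL-1β. It stood at 0.849, 1.11, 1.62 and 1.73 FPKM after bleomycin and at 2.79, 2.24, 3.51 and 2.53 FPKM after doxorubicin. The 4 groups did not overlap, in the order vehicle, IL-1β, bleomycin and doxorubicin. The vehicle values stand for about 1.1 to 11 fragments and those of IL-1β for about 16 to 29, so the step between these groups rests on few reads.

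Fabp4 (ENSMUSG00000062515.3, chr3:10204088-10208576, minus strand) encodes the fatty acid carrier of fat cells, also called aP2, and was the most abundant of the 10 in every group. It stood at 29.1, 27.5, 34.5 and 33.9 FPKM in vehicle and at 54.8, 57.9, 61.7 and 58.8 FPKM after bleomycin. It stood at 155, 116, 140.5 and 151 FPKM after doxorubicin and at 383, 383, 354 and 346 FPKM after IL-1β. The 4 groups did not overlap and lay in that order, with means 1.87-fold, 4.50-fold and 11.7-fold that of vehicle. Fabp4 was the one gene of the 10 whose IL-1β libraries were all above the doxorubicin libraries.

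Of the regulators, Pparg (ENSMUSG00000000440.12, chr6:115360951-115490399, plus strand) encodes PPARγ. It stood at 3.96, 4.62, 3.49 and 3.64 FPKM in vehicle and at 6.48, 6.49, 5.41 and 4.80 FPKM after bleomycin. It stood at 5.20, 6.30, 4.08 and 6.13 FPKM after doxorubicin and at 8.57, 8.31, 5.98 and 6.82 FPKM after IL-1β. Bleomycin and IL-1β lay above vehicle, by 1.48-fold and 1.89-fold in the means. The log2 difference of IL-1β from vehicle went from 0.77 to 0.49 with libraries rescaled to a common sum. On that scale the IL-1β libraries of Pparg no longer lay wholly above vehicle. Doxorubicin overlapped vehicle through its library 3, and the treated groups overlapped one another.

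Cebpa (ENSMUSG00000034957.10, chr7:35119293-35121928, plus strand) encodes C/EBPα. It stood at 2.36, 2.37, 2.27 and 1.91 FPKM in vehicle and at 4.10, 3.62, 4.08 and 3.76 FPKM after bleomycin. It stood at 5.36, 4.67, 4.60 and 5.82 FPKM after doxorubicin and at 4.71, 3.72, 3.77 and 4.18 FPKM after IL-1β. Every treated library was above every vehicle library, by 1.75-fold, 2.29-fold and 1.84-fold in the means, and doxorubicin lay above bleomycin. Pparg and Cebpa each overlap an annotated antisense gene (Gm44079 and Gm45091), and it is not stated whether counting used the strand, so reads of either pair could be mixed.

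**Figure D2:**
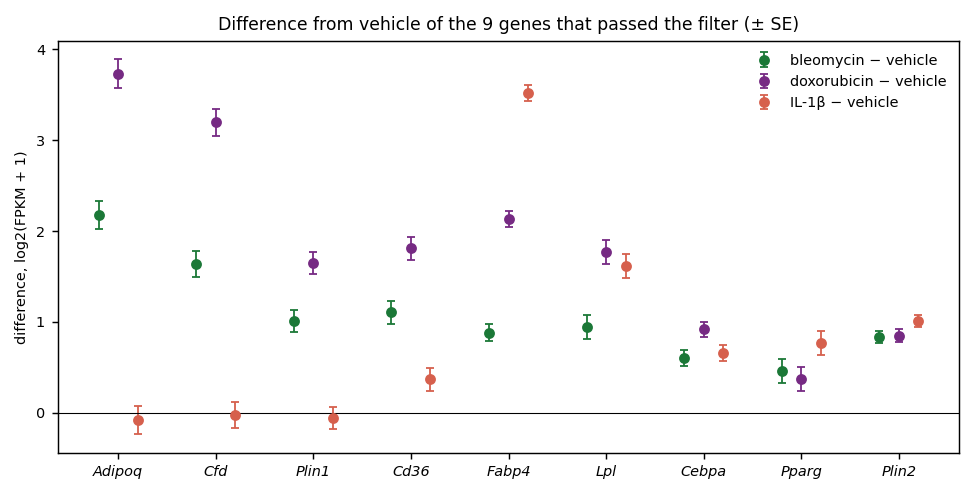
Difference from vehicle on the log2(FPKM + 1) scale (vertical axis) for the 9 genes that passed the filter, as estimate ± SE from the fit to 16 libraries. The IL-1β points of Adipoq, Cfd and Plin1 lie at -0.08, -0.02 and -0.06, while that of Fabp4 is its highest at 3.52.

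Counted over the 10 genes, all 4 bleomycin libraries were above all 4 vehicle libraries for 9, the exception being Retn. Such separation upward was found for 26.3% of all tested genes. For doxorubicin it was 9 of 10, the exception being Pparg, against 23.6% of tested genes, and for IL-1β 6 of 10 against 22.0%. Doxorubicin lay wholly above bleomycin for 8 of 10, all but Pparg and Plin2, against 6.31% of tested genes. IL-1β lay wholly above bleomycin for Fabp4 and Lpl, 2 of 10 against 22.1%, though the separation of Lpl depends on the scaling. It lay wholly below bleomycin for Adipoq, Cfd, Plin1 and Cd36, 4 of 10 against 25.1%. Against doxorubicin, IL-1β was wholly above for Fabp4, 1 of 10 against 25.5%, and wholly below for these 4 and Retn, 5 of 10 against 22.2%. Because the genes were selected on these values, the counts describe the selection and nothing is read from their distance to the background.

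The ratio of doxorubicin to bleomycin followed the 2 shapes only in part, with Fabp4 above Plin1. Leaving out Retn, whose bleomycin values rest on at most 1.4 fragments a library, it was highest for Cfd at 3.70 and Adipoq at 3.42, then 2.41 for Fabp4, 2.08 for Cd36, 2.07 for Plin1 and 1.88 for Lpl. It was 1.31 for Cebpa, 1.01 for Plin2 and 0.936 for Pparg, so Cfd and Adipoq, of these 9, stood farthest apart between the drugs and the gene of PPARγ did not separate them. The IL-1β mean as a percentage of the doxorubicin mean was 0.309% for Adipoq, 1.86% for Plin1 and 13.8% for Cd36. It was 80.1% for Cebpa, 88.9% for Lpl, 112% for Plin2, 137% for Pparg and 261% for Fabp4. These percentages use unscaled FPKM, whose sum was higher in the IL-1β libraries, so they would be lower on a common sum.

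Likeness of pattern was measured as the root mean square distance between log2(FPKM + 1) values standardized over the 16 libraries, where 0 is an identical pattern. The closest pair of the 9 genes that passed the filter was Adipoq and Cfd at 0.144, followed by Cfd and Plin1 at 0.206 and Adipoq and Plin1 at 0.215. Cd36 was 0.236 from Cfd and 0.250 from Adipoq. Cebpa was nearest to Lpl, at 0.418, and Pparg stood farthest from Plin1, at 1.40. All points share the same libraries, so these distances are a description.

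**Figure D3:**
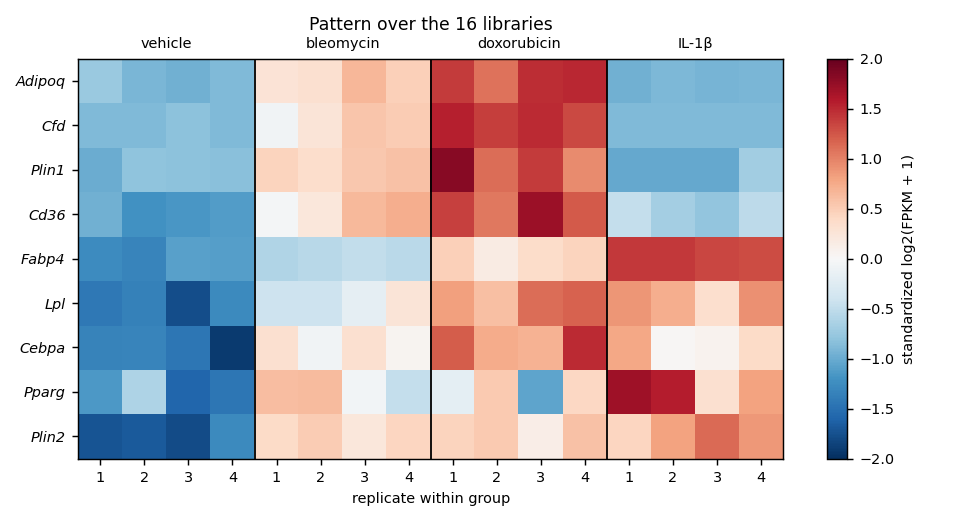
Each row is a gene and each column a library, grouped by treatment; color is the log2(FPKM + 1) value standardized over the 16 libraries (mean 0, SD 1). Adipoq, Cfd, Plin1 and Cd36 are highest in the doxorubicin columns and low in the IL-1β columns, and Fabp4 is highest in the IL-1β columns.

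Among all other tested genes, those nearest to Adipoq in pattern were Rnase4 (distance 0.169), Zbp1 (0.179) and Cd55 (0.193). Rnase4, which encodes a secreted ribonuclease, averaged 22.7 FPKM in vehicle, 56.1 after bleomycin, 92.8 after doxorubicin and 21.6 after IL-1β. Zbp1, a sensor of Z-form nucleic acid that interferon induces, averaged 0.118, 2.02, 4.35 and 0.106 FPKM in the same order. Nearest to Cfd were Cd34 (0.213), Ccdc3 (0.236) and Rnase4 (0.238). Nearest to Plin1 were Nr1d1 (0.212), Mmp19 (0.229) and Aqp1 (0.241), and nearest to Cd36 were Ano3 (0.217), Oas1g (0.221) and Serpine2 (0.246). These genes were picked for this likeness, so their being lowest in IL-1β or vehicle and highest after doxorubicin follows from the choice.

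The genes nearest to Fabp4 were Zfp36l1 (0.116), Cfb (0.136) and C1s1 (0.143). Cfb, which encodes complement factor B, the substrate of adipsin, averaged 5.13 FPKM in vehicle, 11.8 after bleomycin, 39.0 after doxorubicin and 119 after IL-1β. Nearest to Lpl were Grem1 (0.172), Hivep1 (0.201) and Sncg (0.265), and nearest to Cebpa were Maoa (0.279), Dcxr (0.296) and Medag (0.308). Among the 3 genes nearest to Plin2 was Rit1 (0.227). Pparg had no near neighbour by this measure, its closest being S100a1 (0.332), Fam174c (0.399) and Mvb12b (0.419).

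To see how far other genes of fat cell biology moved, 165 genes in 10 lists were read off the same fit, the 10 genes above left out. The lists were drawn up with earlier results of these data known, so nothing is read from their distance to the background. Of these, 121 passed the filter and were tested with limma, with p-values adjusted by the Benjamini-Hochberg method over all 12976 tested genes and a call at an adjusted p under 0.05. After bleomycin 51 rose and 26 fell, where 27.9% of all tested genes rose and 19.0% fell. After doxorubicin 45 rose and 25 fell, where 25.4% of all rose and 22.8% fell. After IL-1β 50 rose and 30 fell, where 24.5% of all rose and 18.4% fell. The median log2 difference of the 121 was 0.14, 0.13 and 0.11 in these comparisons, against 0.06, 0.02 and 0.03 for all tested genes. Between the drugs, 8 were higher and 17 lower in bleomycin than in doxorubicin, where 5.85% of all were higher and 4.18% lower. Of all calls, 59.5% were upward after bleomycin (48.3% under quantile normalization), 57.1% after IL-1β (44.0%) and 58.3% in bleomycin against doxorubicin (46.6%, and 37.6% under median-of-ratios scaling). When libraries were rescaled to a common sum of FPKM, the median of all tested genes in IL-1β against vehicle moved to -0.31, 16.1% of calls were upward, and the lists' counts became 26 higher and 59 lower.

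Mature fat cell markers were mostly rare. Of 14 further markers, 5 were tested, and all 5 rose after both drugs, with a median log2 difference of 0.78 after bleomycin and 1.17 after doxorubicin. Car3, which encodes carbonic anhydrase 3, rose 9.98-fold after bleomycin, from 0.441 ± 0.270 to 4.40 ± 1.33 FPKM (SD, n = 4; limma adjusted p = 2.5e-07), and 6.43-fold after doxorubicin (adjusted p = 3.95e-06). Sncg, which encodes γ-synuclein, rose 2.50-fold after bleomycin, 4.95-fold after doxorubicin and 4.64-fold after IL-1β (adjusted p = 3.55e-10 for the last). Plin4, which encodes a further perilipin, rose 2.70-fold, 3.92-fold and 6.12-fold. Lipe, which encodes hormone-sensitive lipase, rose 2.28-fold after bleomycin and 3.65-fold after doxorubicin, and was 1.11 FPKM after IL-1β against 0.752 in vehicle (limma adjusted p = 0.145). Gpd1, which makes the glycerol backbone of triglyceride, rose 1.57-fold after bleomycin and 3.12-fold after doxorubicin and fell 3.27-fold after IL-1β (adjusted p = 0.000202), though the rise after bleomycin (adjusted p = 0.0114) was lost under quantile normalization and lower pseudocounts. Car3, Plin4 and Lipe were under 1 FPKM in every vehicle library, so they could pass the filter only through treated libraries. Gpd1 was at 0.775 to 1.12 FPKM in vehicle and at most 0.492 after IL-1β, so it needed the drug libraries to pass. The filter thus favoured a rise of these genes, and of the 5 only Sncg, at 17.2 to 23.4 FPKM in vehicle, was free of this. Of the 5, 4 were lower in bleomycin than in doxorubicin, all but Car3. The call of Lipe there (limma adjusted p = 0.0482) was lost under most alternatives, among them no filter, lower pseudocounts, rescaling to a common sum and leaving out any 1 vehicle or bleomycin library, doxorubicin replicate 1 or 4, or IL-1β replicate 3. That of Plin4 (limma adjusted p = 0.0231) was lost with no filter, at the lowest pseudocount, and without bleomycin replicate 1 or 4 or doxorubicin replicate 1, 2 or 4, and that of Gpd1 at the lowest pseudocount.

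The other 9 markers stayed below the filter, and 3 of them are given here, chosen after their values were seen. Lep, which encodes leptin, was listed at 0 in 15 of 16 libraries and at 0.0426 FPKM in 1 doxorubicin library. Cidec, which enlarges lipid droplets, was listed at 0 in every vehicle library, reached at most 0.180 FPKM after bleomycin and 0.0699 after IL-1β, and ranged from 0.593 to 1.34 FPKM after doxorubicin. Adig, which encodes adipogenin, ranged from 0.123 to 0.452 FPKM in vehicle and from 0.877 to 2.15 FPKM after doxorubicin. Doxorubicin thus gave the highest values of Cidec and Adig, as it did of Adipoq and Cfd.

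**Figure D4:**
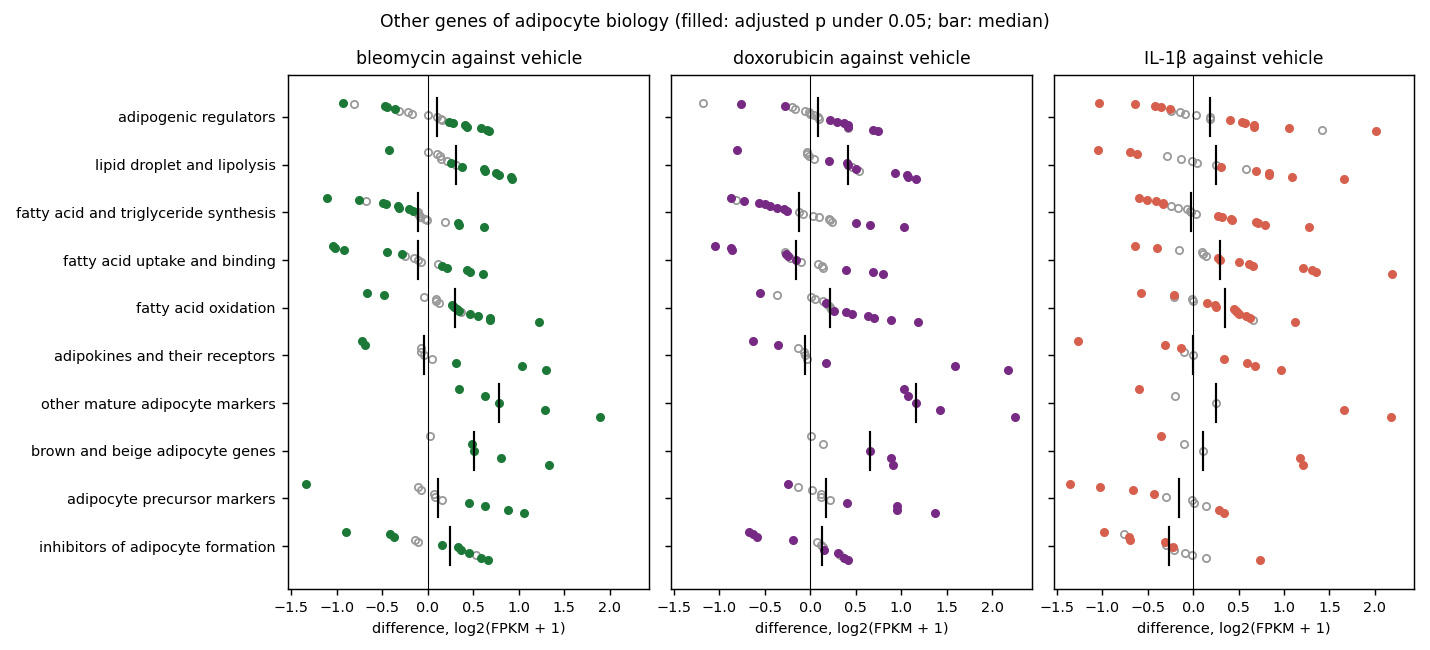
Log2(FPKM + 1) difference from vehicle (horizontal axis) of each tested gene in 10 lists of fat cell biology (rows), for bleomycin, doxorubicin and IL-1β; filled points have an adjusted p under 0.05, open points do not, and bars are list medians. All 5 tested mature markers lie right of 0 after both drugs, and lipid synthesis genes lie mostly left of 0 there. Of these markers, all but Sncg needed treated libraries to pass the filter.

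Within the lipid droplet and lipolysis list, 8 of 15 tested genes rose and 1 fell after each drug, and 6 rose and 3 fell after IL-1β. Over all tested genes, 27.9% rose and 19.0% fell after bleomycin, 25.4% and 22.8% after doxorubicin, and 24.5% and 18.4% after IL-1β. Of these Plin4, Lipe and Cideb were under 1 FPKM in every vehicle library and passed the filter only through treated libraries. Pnpla2, which encodes adipose triglyceride lipase, rose 2.17-fold after bleomycin, 2.45-fold after doxorubicin and 1.82-fold after IL-1β (limma adjusted p = 1.76e-06, 2.54e-07 and 2.66e-05). Hsd17b11, a droplet-associated dehydrogenase, rose 2.01-fold after each drug and 2.27-fold after IL-1β. The gene that fell after the drugs was G0s2, which encodes an inhibitor of that lipase, 1.36-fold after bleomycin and 1.79-fold after doxorubicin, and it fell 2.13-fold after IL-1β. Plin3, named with G0s2 after its values were seen, rose 1.31-fold, 1.16-fold and 1.26-fold, though its IL-1β difference was -0.04 on the log2 scale with libraries rescaled to a common sum.

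In the uptake and binding list, 5 of 15 tested genes rose and 5 fell after bleomycin, 3 rose and 6 fell after doxorubicin, and 9 rose and 2 fell after IL-1β. The shares over all tested genes were, in this order, 27.9%, 25.4% and 24.5% up and 19.0%, 22.8% and 18.4% down. Of the relatives of Fabp4, Fabp3 moved upward in all comparisons with vehicle and Fabp5 did not. Fabp5, which encodes the epidermal fatty acid carrier, fell 2.04-fold after bleomycin and 1.83-fold after doxorubicin, from 94.5 ± 5.23 to 46.4 ± 6.82 and 51.7 ± 4.17 FPKM (SD, n = 4; limma adjusted p = 1.49e-07 and 7e-07). It rose 2.49-fold after IL-1β, to 236 ± 14.7 FPKM (limma adjusted p = 4.53e-09). In mean FPKM, Fabp5 thus exceeded Fabp4 in vehicle (94.5 against 31.2). Fabp4 exceeded Fabp5 after bleomycin (58.3 against 46.4, with overlapping libraries), doxorubicin (141 against 51.7) and IL-1β (367 against 236). The order of different genes in FPKM also depends on the gene lengths used, which are not given. Fabp3, the heart-type carrier, named after its values were seen, rose 1.50-fold, 1.80-fold and 2.74-fold.

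Also in that list, Acsl3, which activates fatty acids, fell 2.04-fold and 1.96-fold after the drugs and rose 1.25-fold after IL-1β, a rise that became a log2 difference of -0.05 with libraries rescaled to a common sum. Slc27a1, a fatty acid transporter, rose 3.06-fold after IL-1β. Angptl4, which encodes a secreted inhibitor of lipoprotein lipase, rose 4.83-fold after IL-1β, from 13.4 to 64.9 FPKM (limma adjusted p = 5.48e-07). It averaged 14.8 FPKM after bleomycin and 12.1 after doxorubicin (adjusted p = 0.694 and 0.422). Whether the drug groups and IL-1β differ was not tested for these genes.

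**Figure D5:**
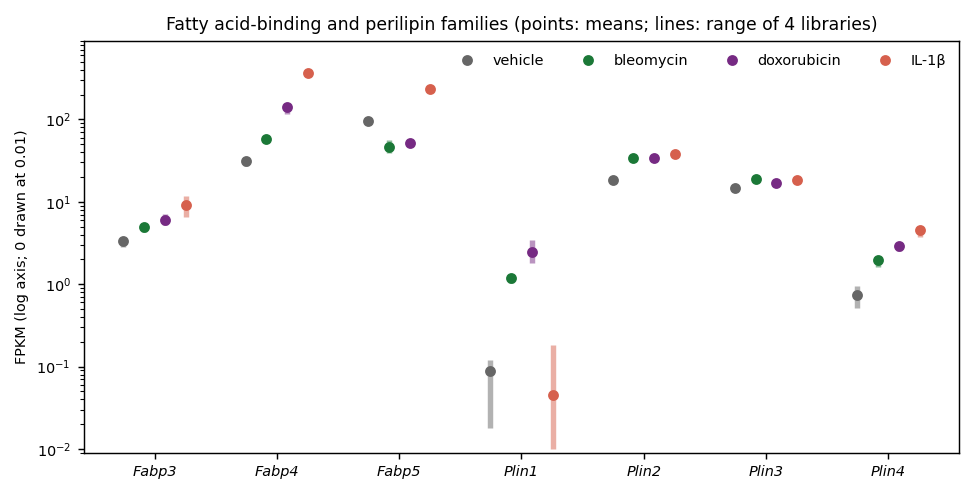
FPKM on a log axis of 3 fatty acid-binding protein genes and 4 perilipin genes in the 4 groups; points are means and lines the range of 4 libraries, with 0 drawn at 0.01. Fabp4 goes up from vehicle to IL-1β, Fabp5 goes down after both drugs, and Plin1 alone is near the bottom in vehicle and IL-1β.

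Among genes that make fatty acids and triglyceride, more fell than rose after the drugs. Of 19 tested, 3 rose and 8 fell after bleomycin and likewise after doxorubicin, with medians of -0.11 and -0.13. Over all tested genes, 27.9% and 25.4% rose and 19.0% and 22.8% fell in these comparisons, and after IL-1β 24.5% rose and 18.4% fell. Scd1, which desaturates fatty acids, fell 2.22-fold and 1.69-fold, and Elovl6, which elongates them, fell 1.81-fold and 2.00-fold. Lpin1, a phosphatase of triglyceride synthesis, rose 1.70-fold after bleomycin and 1.97-fold after IL-1β. Gpd1, also in this list and among those that rose after doxorubicin, needed the drug libraries to pass the filter. After IL-1β 8 rose and 5 fell while the median was -0.02, and Dgat2, which completes triglyceride, rose 2.56-fold (limma adjusted p = 5.86e-08).

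Genes of fatty acid oxidation went up in larger number than down in each comparison: 9 rose and 2 fell of 16 after bleomycin, 8 and 1 after doxorubicin and 10 and 2 after IL-1β. The shares over all tested genes were, in this order, 27.9%, 25.4% and 24.5% up and 19.0%, 22.8% and 18.4% down. Cpt1a, which admits fatty acids to mitochondria, rose 2.58-fold, 2.51-fold and 1.45-fold, the last a call that was lost with libraries rescaled to a common sum. Pdk4, which turns cells from glucose to fatty acids, rose 3.06-fold and 3.87-fold after the drugs from 0.416 FPKM in vehicle; Pdk4 and Cpt1b were under 1 FPKM in every vehicle library and passed the filter only through treated ones. Ucp2 rose 2.33-fold and Acadl 1.57-fold after IL-1β.

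Of 19 tested adipogenic regulators, 7 rose in each comparison with vehicle, and 4 fell after bleomycin, 2 after doxorubicin and 5 after IL-1β. That is 36.8% up each time, where 27.9%, 25.4% and 24.5% of all tested genes rose. It is 21.1%, 10.5% and 26.3% down, where 19.0%, 22.8% and 18.4% of all fell. Srebf1, which encodes the lipid synthesis regulator SREBP1, fell 1.94-fold after bleomycin and 1.73-fold after doxorubicin (limma adjusted p = 1.08e-07 and 6.25e-07). Zfp423, a factor of precursor commitment, rose 2.27-fold and 2.30-fold, and Klf9 rose 1.66-fold and 1.78-fold. Zfp423 was at 0.6965 to 1.195 FPKM in vehicle, so it needed treated libraries to pass the filter. Cebpb, which acts before Cebpa in fat cell formation, rose 4.15-fold after IL-1β, to 79.4 FPKM, and averaged 16.1 and 18.0 FPKM after the drugs against 19.1 in vehicle (adjusted p = 0.32 and 0.809). Nr1h3, which encodes the sterol receptor LXRα, rose 2.36-fold after IL-1β.

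Among 9 tested adipokines and receptors, 3 rose and 2 fell after each drug, and 4 rose and 3 fell after IL-1β. After the drugs that is 33.3% up and 22.2% down, near the shares over all tested genes. Those were 27.9% and 19.0% after bleomycin, 25.4% and 22.8% after doxorubicin, and 24.5% and 18.4% after IL-1β. Rarres2, which encodes the adipokine chemerin, rose 3.25-fold after bleomycin and 6.50-fold after doxorubicin, from 1.86 to 6.05 and 12.1 FPKM (limma adjusted p = 0.000143 and 6.06e-07). Its receptor gene Cmklr1 fell 1.91-fold, 1.79-fold and 3.64-fold in the 3 comparisons. Cdh13, which encodes T-cadherin, a surface receptor that binds adiponectin, rose 2.53-fold after bleomycin and 3.92-fold after doxorubicin (limma adjusted p = 2.75e-07 and 1.51e-09). Cdh13 and Rarres2 were also lower in bleomycin than in doxorubicin (limma adjusted p = 0.0013 and 0.0186), the order that Adipoq had. The call of Rarres2 there was lost with no filter and without bleomycin replicate 1 or 2, or doxorubicin replicate 4. Rbp4, a retinol carrier, fell 1.65-fold after bleomycin and rose 1.97-fold after IL-1β.

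Of 5 tested brown and beige fat genes, 4 rose after bleomycin, 3 after doxorubicin and 2 after IL-1β, with 0, 0 and 1 lower. For this and the next lists, the shares over all tested genes were 27.9%, 25.4% and 24.5% up. Downward they were 19.0%, 22.8% and 18.4%. Cox7a1, a subunit of cytochrome oxidase, rose 4.34-fold, 2.96-fold and 3.94-fold, Dio2, which activates thyroid hormone, rose 4.76-fold, 5.20-fold and 7.17-fold, and Tmem26 rose 1.57-fold and 1.76-fold after the drugs. Dio2 was under 1 FPKM in every vehicle library, so it passed the filter only through treated libraries. Cox7a1, at 0.485 to 1.01 FPKM in vehicle, also needed treated libraries to pass. Of 10 tested markers of fat cell precursors, 4 rose and 1 fell after each drug, and 2 rose and 4 fell after IL-1β. Ly6a, which encodes Sca-1, rose 2.11-fold after bleomycin and 2.59-fold after doxorubicin, Fap rose 2.26-fold and 2.39-fold, and Cd34 rose 2.02-fold after doxorubicin. F3 fell 2.91-fold after bleomycin, and Pdgfra fell 2.11-fold and Clec11a 2.79-fold after IL-1β. Of 12 tested inhibitors of fat cell formation, 6 rose and 3 fell after bleomycin, 4 rose and 4 fell after doxorubicin, and 1 rose and 5 fell after IL-1β; Wnt10a, among those that rose after the drugs, passed the filter only through treated libraries. Wnt10b, a ligand that holds precursors back, fell 2.65-fold after bleomycin and 1.92-fold after doxorubicin and rose 1.90-fold after IL-1β, while Klf2 fell 1.70-fold after doxorubicin and 2.16-fold after IL-1β.

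Markers of other cells moved in the same libraries. Over all tested genes, 27.9% rose and 19.0% fell after bleomycin, 25.4% and 22.8% after doxorubicin, and 24.5% and 18.4% after IL-1β. Of 17 tested chondrocyte markers, 2 rose and 11 fell after bleomycin, 2 rose and 8 fell after doxorubicin, and 0 rose and 15 fell after IL-1β. Acan, which encodes aggrecan, fell 2.04-fold, 1.98-fold and 4.19-fold, while Sox9, a transcription factor that cartilage cells depend on, fell 1.29-fold, 1.22-fold and 1.84-fold. Of 6 synovial fibroblast markers, 5 were tested, of which 4 rose after bleomycin, 5 after doxorubicin and 3 after IL-1β, where Thy1 fell. The summed synovial level was 69.0 to 103 FPKM in vehicle, 139 to 179 after bleomycin, 201 to 268 after doxorubicin and 151 to 182 after IL-1β. Prg4, which encodes lubricin, rose 2.63-fold after bleomycin and 4.61-fold after doxorubicin, to 97.4 FPKM, a large part of the summed synovial level. Which cells carried the Prg4 transcripts was not tested. Of 15 macrophage markers, 4 were tested, and Cd68, Lyz2 and Cd14 rose in each comparison with vehicle, though the call of Cd14 after bleomycin was lost under quantile normalization and without vehicle replicate 4. Mrc1, the other tested marker, fell after IL-1β. The summed macrophage level was 9.40 to 11.1 FPKM in vehicle, 17.2 to 18.9 after bleomycin, 20.5 to 25.3 after doxorubicin and 30.0 to 35.5 after IL-1β, so it was ordered like Fabp4. Ptprc and Adgre1 were nearly missing in all groups, at 0.0318 and 0.0192 FPKM at most. Csf1r and Aif1, also below the filter, were low but not level between groups. Csf1r averaged 0.197 FPKM in vehicle, 0.139 after bleomycin, 0.551 after doxorubicin and 0.698 after IL-1β. Aif1 averaged 0.175, 0.685, 1.117 and 0.8001 FPKM in the same order. These differences were not tested. Of 11 endothelial markers, 2 were tested, of which Egfl7 rose after bleomycin and IL-1β, and Erg fell after IL-1β. Their summed level, over all 11, lay between 7.39 and 11.1 FPKM in all groups, and Pecam1 was at most 0.426 FPKM. Of 7 marrow stromal markers, 6 were tested, of which 2 rose in each comparison with vehicle, Lepr fell after doxorubicin and Cxcl12 and Ebf3 fell after IL-1β, and the summed level was 57.4 to 101 FPKM over all groups. The part of the macrophage, synovial and chondrocyte markers in the levels of the 10 genes was not tested.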

How the data were processed

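RNA was measured in 16 libraries of a stranded poly(A) kit, 4 each of vehicle, bleomycin, doxorubicin and IL-1β, grouped by the labels. Trimmomatic, STAR and the build GRCm38 are named in the submitters' processing notes; their versions, and the tool and annotation behind FPKM, are not given in the sources used here. Values deposited by the authors are FPKM, 1 table per library. Depth was estimated from the steps between low values; 59.3% to 63.3% of these came out as whole fragments within 0.1, so counts were not recovered. Within groups, at most 0.0085% of genes at 1 FPKM or more had equal values in a pair of libraries.

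Values were taken as log2(FPKM + 1) without further scaling. Genes at 1 FPKM or more in 4 or more libraries were fitted in limma 3.58.1 (R 4.3.3; trended variance, 1 spread over all 4 groups, Benjamini-Hochberg), after a test on simulated data. Python 3.11.15 with pandas 2.3.3 gave the descriptions. The 10 genes, the lists and the named-gene rule were chosen with earlier results of these data known. The rule allowed, per list, up to 3 called genes of largest log2 difference for each drug and 2 for IL-1β, and the 3 genes nearest each of the 9 in pattern; the text names most of these, and some results are not reported here. The lists share 4 genes between droplets and mature markers. Gene coordinates are from GENCODE M21 (GRCm38), promoters from RefSeq. Alternatives were other scalings, pseudocounts of 0.1 and 0.01, no or a stricter filter (5 FPKM), a replicate block, fits to 2 groups, and each library left out.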

Additional observations from a re-analysis of the deposited data

Results flagged for a closer look

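Within the groups of 4 libraries, 27 of 360 groups of values over 92 genes had a highest or lowest library set apart from the other 3 by more than the 95% critical value of Dixon's test; chance alone gives about 1 in 20. Among the 10 genes this touched 2, each with 1 library above 0 and the other 3 listed at 0: Cfd in vehicle replicate 3, at 0.0689 FPKM, and Plin1 in IL-1β replicate 4, at 0.183 FPKM.

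Of the other genes, those with the remaining 3 libraries at 0 were Ptprc in vehicle (0.0216), Adgre1 in vehicle (0.0172), bleomycin (0.0192) and doxorubicin (0.0180), Lep in doxorubicin (0.0426), Cidec in IL-1β (0.0699) and Oas1g in vehicle (0.0321), all in FPKM. A high library was found for Col2a1 in IL-1β (4191), Sox9 in doxorubicin (51.2), Fabp5 in vehicle (102), Cpt1a in vehicle (6.10), Acadl in doxorubicin (25.0), Cmklr1 in IL-1β (1.54), Grem1 in bleomycin (44.2) and Zfp36l1 in vehicle (16.6). A low library was found for Ptprc in IL-1β (0), Cd14 in bleomycin (4.83) and doxorubicin (4.63), Dgat2 in vehicle (6.54) and bleomycin (5.80), Cox7a1 in bleomycin (2.51), Dio2 in IL-1β (1.48), Cd34 in vehicle (9.95), Ano3 in bleomycin (0.583) and Nr1d1 in IL-1β (3.66).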

How the results depend on the processing

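The number of the 10 genes whose libraries lay wholly above vehicle was 9, 9 and 6 (bleomycin, doxorubicin, IL-1β), 8 for bleomycin under quantile normalization, 5 for IL-1β with libraries rescaled to a common sum and otherwise the same under the other scalings, and 9, 9 to 10 and 6 when 1 library was left out. A pseudocount of 0.01 in place of 1 raised the log2 difference of Adipoq after bleomycin from 2.18 to 5.97, and that of Cd36 after IL-1β from 0.37 to 2.58. With libraries rescaled to a common sum, the IL-1β counts over all genes were 1312 higher and 6821 lower (3181 and 2393 unscaled), those of the lists 26 and 59 (50 and 30), and Acsl3, Plin3 and Cd55 reversed after IL-1β, to -0.05, -0.04 and -0.31 on the log2 scale. Col2a1 after bleomycin came to 0 under quantile normalization, which gives the top gene of every library the same value. Col2a1 was the top gene of every vehicle and bleomycin library. For bleomycin above doxorubicin, median-of-ratios scaling gave 419 genes for 759 and 3 list genes for 8, and no filter gave 4 list genes. Without 1 library, that count ranged from 481 to 821 over all genes, the lowest without bleomycin replicate 1, and from 2 to 8 in the lists, the lowest without bleomycin replicate 2. The adipogenic regulator Cebpd had 1 doxorubicin library far below its others; without it (doxorubicin replicate 3) the bleomycin minus doxorubicin difference reversed to -0.57 (range without 1 library -0.57 to 0.81). Saa3, the top gene of the IL-1β libraries, held 11.99% to 14.35% of their summed FPKM. Apart from that of Col2a1, the cause of these shifts was not tested.

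Replicate numbers were not treated as pairs in the main fit. Libraries with the same number correlated at -0.023 to 0.214 (median 0.052) in their deviations from group means, with 6 of 24 pairs over 0.1. Pairs with different numbers correlated at -0.195 to 0.099 (median -0.024), with 0 of 72 over 0.1. Of 16 libraries, 13 correlated best with their own number. Same-numbered libraries thus tended to deviate together, which the main fit leaves out. With a replicate block, 3684 genes rose and 2525 fell after bleomycin, 3408 and 3033 after doxorubicin and 3265 and 2470 after IL-1β; the lists gave 51 and 26, 48 and 26, and 51 and 31. The block gave 853 higher and 635 lower for bleomycin against doxorubicin, and 10 and 15 in the lists.

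Low depth limits Retn throughout, and Adipoq, Cfd, Plin1 and Cd36 in vehicle and IL-1β, where a few fragments set the values.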
